A study of Mus musculus with 8 samples.

Results

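The genes described here are direct targets of p53, a transcription factor that stops the cell cycle, promotes DNA repair or starts cell death when cells are damaged or stressed. A list of 37 target genes was taken by symbol, and 35 of them had a probe set of their own on the array, out of 19938 genes measured. Each gene is represented by its brightest probe set with a single gene symbol. Bax and Gdf15 are the 2 listed genes that were not analysed here, and neither were Trp53, which encodes p53, and Cdkn1a, its best known target for cell cycle arrest.

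p53 is normally kept scarce by the ubiquitin ligase MDM2, whose own gene p53 switches on, so that the pathway limits itself. Some targets release or sense death signals at mitochondria and at the cell surface, and others repair DNA, restrain growth or change metabolism. In myeloid leukaemia cells p53 activity opposes growth, and MLL fusion leukaemias often keep an intact p53 gene.

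The cells were mouse c-Kit-positive bone marrow cells with floxed alleles of both Runx1 and Cbfb, the genes for a blood transcription factor and for its partner protein. All cultures carried 2 introduced constructs, the leukaemia fusion MLL-AF9 and CreERT2 with puromycin resistance, a Cre recombinase that 4-hydroxytamoxifen (4OHT) activates, and were replated under puromycin. The control group, titled Control (genotype Runx1/Cbfb-intact), received EtOH, and the other group, titled Runx1Cbfb-KO (genotype Runx1/Cbfb-KO), received 4OHT at 1 uM; both were kept in M3434 methylcellulose and collected at 24 h. Each group held 4 arrays, from 2 clones with 2 biological replicates each, and a set pairs the control with the 4OHT culture that shares its clone and number. All cultures come from only 2 clones, and no culture received 4OHT without floxed genes, so the effects of 4OHT and of active Cre cannot be told apart from that of the deletion.

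The median log2 value of an array ran from 6.26 to 6.39 and was highest in the 4OHT array of clone 2, replicate 2. Correlations across probe sets were at least 0.991 within a clone and at least 0.977 between clones. Runx1 signal was 1.44-fold higher in the 4OHT arrays, in 4 of 4 sets. Cbfb was lower by 1.13-fold, also in 4 of 4 sets, without passing the test. A probe set that averages exons does not test the deletion of some of them. Because these signals do not settle the deletion, the 4OHT cultures are named as labelled deleted, and the directions given rest on the labels. The mean level of 12 myeloid progenitor markers ran from 10.46 to 11.07 in control arrays, and single markers averaged from 6.75 to 13.32 over all arrays. Among control arrays the progenitor marker Cd34 (8.59 ± 3.17, SD, n = 4) and the B cell marker Cd79b (7.96 ± 1.74, SD, n = 4) varied widely.

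In the cultures labelled deleted, 1 of the 35 p53 targets rose and none fell; the other 34 did not pass the test, a paired limma fit over all 19938 genes with Benjamini-Hochberg adjustment at 0.05. Over all genes the same rule called 0.481 percent higher and 0.471 percent lower, 0.953 percent together. At an unadjusted p under 0.05 there were 5 of the 35, all of them higher, against 6.47 percent of all genes (3.22 percent higher and 3.24 percent lower). The gene that rose was Trp53inp1, an inducer of cell death and autophagy, at 1.39-fold. Feedback regulators such as Mdm2 and the death gene Bbc3 did not pass. The 35 log2 differences had a median of 0.04, from -0.12 to 0.48, and 25 were above 0, against a median of 0.0002 and 50.1 percent above 0 over all genes. With every array centred on its median, 21 of 35 were above 0, and the median was 0.02 over the 35 genes and -0.02 over all genes. For 24 of the 35 genes the 95% interval of the change lay within 1.2-fold in either direction, as it did for 82.2 percent of all genes. These intervals, and each SE below, borrow spread from other genes and treat the 4 sets as independent. Where cultures of a clone are not separate experiments, the sets of that clone are not independent and the intervals may be too narrow.

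**Figure D1:**
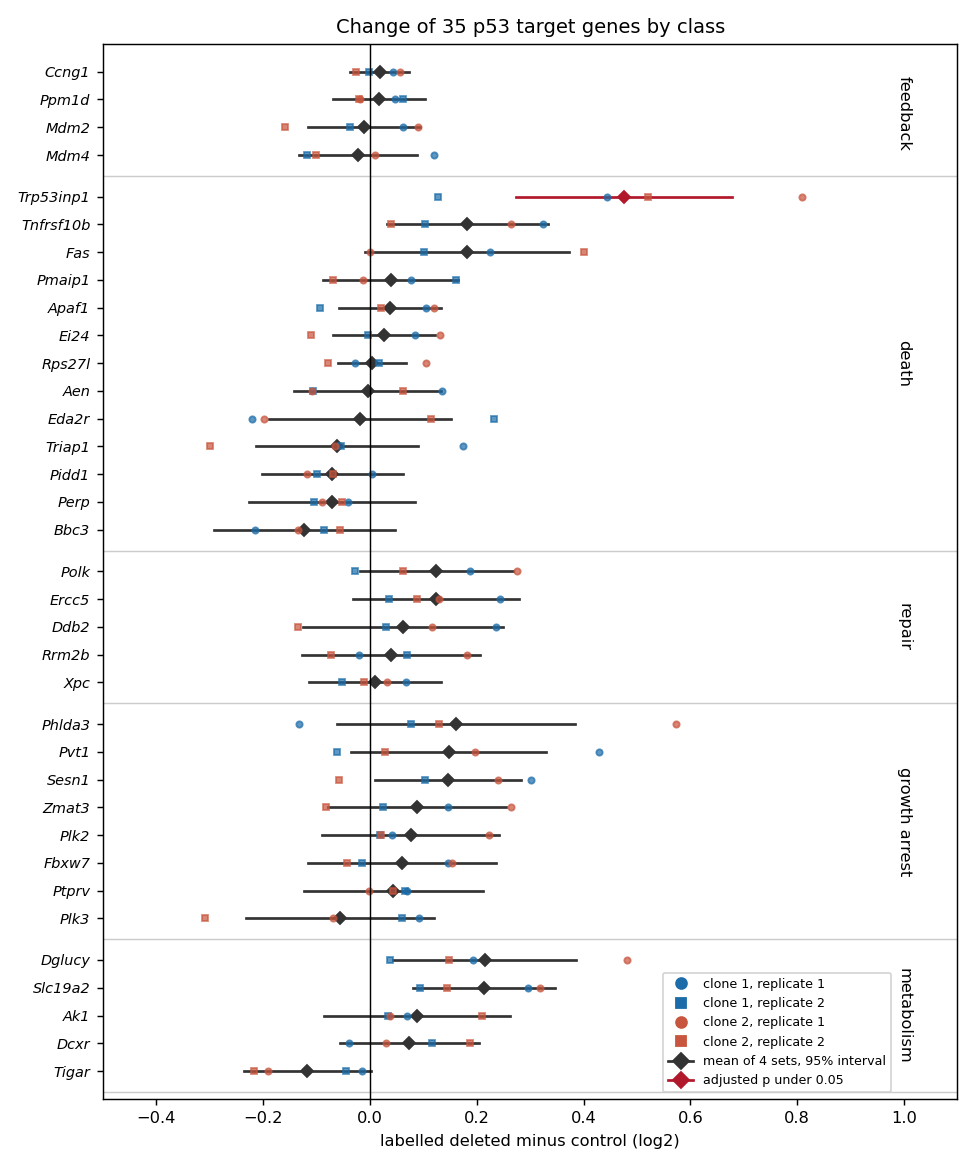
Difference in log2 level, labelled deleted minus control, for each of the 35 genes, grouped by role. Diamonds give the mean of the 4 sets with its 95% interval, circles and squares give the sets, and only Trp53inp1, at 0.48, is drawn in red as past the threshold.

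The feedback class holds 4 genes that act on p53 itself, and none of them passed. Mdm2, the ubiquitin ligase that marks p53 for destruction, was at 10.05, 10.08, 10.02 and 9.995 in the control arrays of clone 1 (replicates 1 and 2) and clone 2 (replicates 1 and 2). In the same order it was at 10.11, 10.05, 10.11 and 9.84 in the arrays labelled deleted. The groups overlapped, and the lowest array was the one labelled deleted of clone 2, replicate 2. The log2 difference was -0.01 ± 0.05 (SE, n = 4 sets; limma adjusted p = 1.00), with a 95% interval from -0.12 to 0.09, or 0.923-fold to 1.07-fold. It was 0.0023 with array weights and 0.04 without the set of clone 2, replicate 2.

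Ccng1, which encodes cyclin G1, a partner of the phosphatase PP2A that acts on MDM2, gave the narrowest interval of the class. Its control arrays stood at 12.10, 12.09, 11.97 and 11.66 and those labelled deleted at 12.14, 12.09, 12.02 and 11.64. Within each set the values lay close together, while clone 2, replicate 2 was low in both groups. The log2 difference was 0.02 ± 0.03 (SE, n = 4 sets; limma adjusted p = 1.00), from -0.04 to 0.07 at 95%, and -0.0049 with arrays centred on their median. Mdm4, a relative of MDM2 that masks the activation domain of p53, was at -0.02 ± 0.05. Ppm1d, the phosphatase that ends the DNA damage signal to p53, was at 0.02 ± 0.04.

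The promoters of the feedback genes Mdm2 and Ccng1 are shown in full. Each holds a match to the half-site that p53 binds and to the RUNX core, the motif of the factor targeted in this study. The death gene Aen also holds both. The windows run from 250 bases before to 50 bases after the RefSeq transcription start (build GRCm38.p6), and both lie on the minus strand. The RUNX core was searched as TGTGGT and TGCGGT on both strands, and the p53 half-site by its degenerate pattern, which reads alike on both. Capitals mark the matches of either motif, which share no base.
Mdm2, chr10:117710709-117711008: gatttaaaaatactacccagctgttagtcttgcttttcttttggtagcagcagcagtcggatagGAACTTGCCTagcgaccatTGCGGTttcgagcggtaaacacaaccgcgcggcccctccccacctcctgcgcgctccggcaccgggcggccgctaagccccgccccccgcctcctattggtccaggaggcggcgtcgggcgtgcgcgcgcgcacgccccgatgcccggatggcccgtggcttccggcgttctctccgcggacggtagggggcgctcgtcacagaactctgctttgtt
Ccng1, chr11:40755237-40755536: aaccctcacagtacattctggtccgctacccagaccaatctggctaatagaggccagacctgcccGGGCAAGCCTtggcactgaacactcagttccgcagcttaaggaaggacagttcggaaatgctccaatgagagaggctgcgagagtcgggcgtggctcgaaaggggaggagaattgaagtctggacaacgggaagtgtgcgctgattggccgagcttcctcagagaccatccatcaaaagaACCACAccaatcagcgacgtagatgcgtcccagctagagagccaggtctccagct
In Mdm2 the half-site began 186 bases before the start and a RUNX core 167 bases before it. In Ccng1 the half-site began 185 bases before the start, and the RUNX core, on the opposite strand, 5 bases before it.

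Promoter windows were found for 25 of the 35 genes, 37 windows in all. A p53 half-site occurred in 9 of these windows, from 8 genes, and in 8.36 percent of the 32851 mouse windows. The other 6 genes are shown in stretches of 30 bases with the half-site in capitals, to let the sites be compared by eye.
Aen, chr7:78895927-78895956, plus strand: agccgaagccGGGCTTGTCCgggcaaggag
Ei24, chr9:36797325-36797354, minus strand: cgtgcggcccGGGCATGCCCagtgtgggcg
Ppm1d, chr11:85311112-85311141, plus strand: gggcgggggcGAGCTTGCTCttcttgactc
Polk, chr13:96519399-96519428, minus strand: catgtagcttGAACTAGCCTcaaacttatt
Sesn1, chr10:41887256-41887285, plus strand: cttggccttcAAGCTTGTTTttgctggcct
Rps27l, chr9:66946193-66946222, plus strand: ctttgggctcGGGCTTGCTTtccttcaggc
Rps27l, chr9:66946296-66946325, plus strand: gggcttgttgAGACTTGTCCgggcgacacg
The 8 genes with a half-site had a median log2 difference of 0.02 (from -0.01 to 0.15), and the 17 with a window but no match had 0.06 (from -0.12 to 0.21). A RUNX core occurred in 14 of the 37 windows, from 12 genes, and in 22.4 percent of all windows. The 12 genes had a median of 0.0068 and the 13 without a match 0.08. None of these 25 genes passed the test. A match is a description of the letters and not a bound site, and p53 sites of several targets are known to lie in introns outside these windows.

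**Figure D2:**
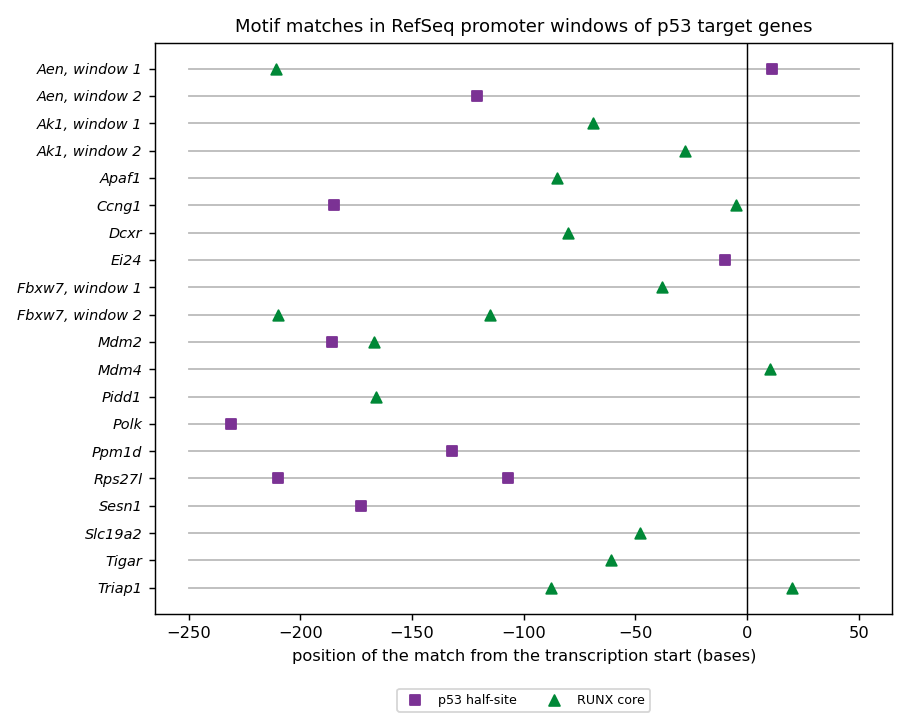
Position of each motif match, in bases from the RefSeq transcription start, in the promoter windows that hold one. Purple squares are p53 half-sites and green triangles RUNX cores; Mdm2, Ccng1 and Aen hold both, and a gene with matches in more than 1 window has a line for each.

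Of the 14 death genes, 13 were measured, with 1 risen, 0 fallen and 12 short of the threshold; 7 differences were above 0 and 6 below, with a median of 0.0041. Trp53inp1 was at 8.09, 8.05, 7.64 and 7.05 in the control arrays, in the order used above, and at 8.53, 8.18, 8.45 and 7.57 in those labelled deleted. Every culture labelled deleted was above its own control, although the groups overlapped, the value labelled deleted of clone 2, replicate 2 lying below 3 of the 4 controls. The log2 difference was 0.48 ± 0.09 (SE, n = 4 sets; limma adjusted p = 0.0312), or 1.39-fold with a 95% interval from 1.21 to 1.60. The set differences were 0.44, 0.13, 0.81 and 0.52, with an SD of 0.28. The call ended when clone 1, replicate 1 was left out (adjusted p = 0.0915) or clone 2, replicate 1 (0.182), with a constant variance prior (0.226) and with all probe sets tested (0.477). It also ended in fits that dropped the pairing (1.00), kept clone alone (1.00), kept clone beside replicate number (0.215) or took the set as random (0.922). The difference itself ran from 0.36 to 0.59 over the 16 alternatives. Its direction was not tested by them, since fits that changed only the spread returned the same value. With 4 of 4 sets above 0, leaving 1 set out could not reverse it either.

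Within the death class, 2 death receptors were next in size. Tnfrsf10b, the receptor for the death ligand TRAIL, was at 8.43, 8.49, 7.91 and 7.53 in control arrays and at 8.75, 8.59, 8.17 and 7.57 in those labelled deleted. Its difference of 0.18 ± 0.07 was above 0 in 4 of 4 sets but did not pass (limma adjusted p = 0.535). Fas, the receptor for Fas ligand, was at 6.34, 6.26, 6.11 and 5.76 in control arrays and at 6.56, 6.36, 6.11 and 6.16 in those labelled deleted. The set of clone 2, replicate 2 gave the widest step, and the mean difference of 0.18 ± 0.09 did not pass (limma adjusted p = 0.840); without that set it was 0.11. Eda2r, a receptor of the same family for ectodysplasin A2, was at -0.02 ± 0.08, and its levels were low, averaging 4.42 in the control arrays of clone 1 and 4.51 in those of clone 2.

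Genes of the mitochondrial branch did not pass. Bbc3 encodes PUMA, a BH3-only protein that triggers cell death, and its control arrays were at 6.75, 6.77, 6.82 and 6.91 and those labelled deleted at 6.53, 6.69, 6.68 and 6.86. It was lower in 4 of 4 sets, by 0.12 ± 0.08 on average, and did not pass (limma difference -0.12, adjusted p = 1.00, 95% interval 0.817-fold to 1.03-fold). Pmaip1, which encodes the BH3-only protein NOXA, was at 0.04 ± 0.06, and Apaf1, the scaffold of the caspase-activating apoptosome, at 0.04 ± 0.04. The exonuclease gene Aen was at -0.0043 ± 0.06, and Pidd1, the scaffold that activates caspase-2, at -0.07 ± 0.06. Ei24, an endoplasmic reticulum membrane protein gene, was at 0.03 ± 0.04, the membrane protein gene Perp at -0.07 ± 0.07, Triap1, an inhibitor of apoptosis, at -0.06 ± 0.07 and Rps27l, a ribosomal protein paralog whose close relatives can share probes, at 0.0041 ± 0.03.

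**Figure D3:**
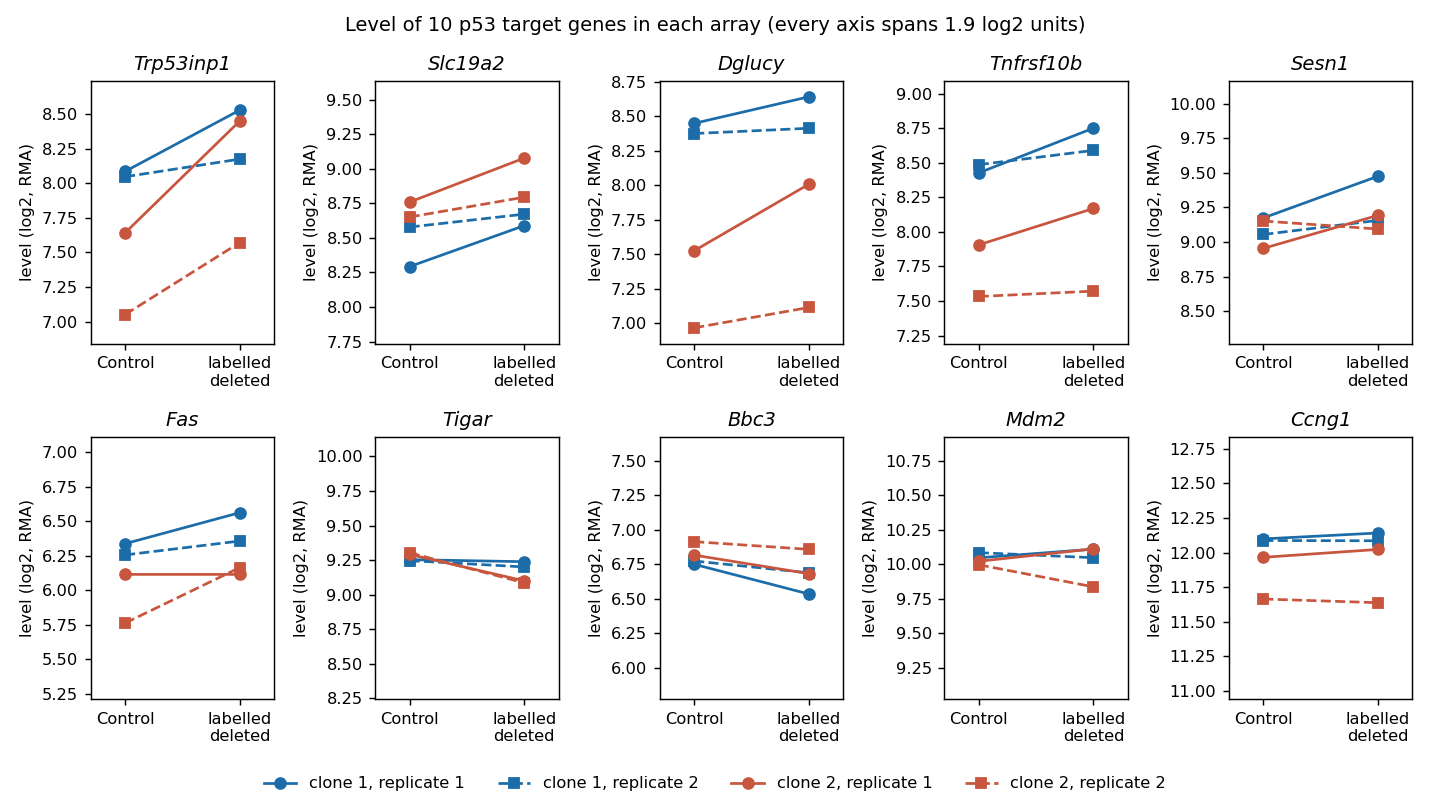
Log2 level of 10 p53 target genes in every array, with a line joining the control and the culture labelled deleted of each set (blue, clone 1; red, clone 2; solid, replicate 1; dashed, replicate 2). Trp53inp1 climbs in all 4 sets, by 0.13 to 0.81, from starting levels between 7.05 and 8.09, whereas the lines of Ccng1 are nearly flat. The lines of Mdm2 go both ways, from -0.16 to 0.09.

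All 5 DNA repair genes had differences above 0, none passed, and the median was 0.06. Polk, a DNA polymerase that copies past damaged bases, was at 8.67, 8.59, 8.33 and 8.23 in control arrays and at 8.86, 8.56, 8.61 and 8.29 in those labelled deleted. Clone 1, replicate 2 was the one set without a higher value, and the difference was 0.12 ± 0.07 (SE, n = 4 sets; limma adjusted p = 0.911), or 0.07 without clone 2, replicate 1. Ercc5, the XPG nuclease of nucleotide excision repair, was at 7.59, 7.66, 7.61 and 7.35 in control arrays and at 7.83, 7.69, 7.74 and 7.44 in those labelled deleted. It was above its control in 4 of 4 sets, at 0.12 ± 0.07 (limma adjusted p = 0.985). The damage sensors of the same repair pathway were lower in size, Ddb2 at 0.06 ± 0.09 and Xpc at 0.0090 ± 0.06. Rrm2b, the p53-induced subunit of ribonucleotide reductase, was at 0.04 ± 0.08.

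Of 9 growth arrest genes 8 were measured, none passed, 7 were above 0 and the median was 0.08. Sesn1, a sestrin that restrains mTORC1, was at 9.17, 9.05, 8.95 and 9.15 in control arrays and at 9.48, 9.16, 9.19 and 9.09 in those labelled deleted. Clone 2, replicate 2 was below its control, at -0.06, while the other sets were above theirs, by 0.10 to 0.30. The mean difference was 0.15 ± 0.06 (SE, n = 4 sets; limma adjusted p = 0.683), and without clone 2, replicate 2 it was 0.21, which passed (0.0448); without clone 1, replicate 1 it was 0.09. Pvt1, a long noncoding RNA gene beside Myc, was at 7.89, 7.80, 7.61 and 7.65 in control arrays and at 8.32, 7.74, 7.81 and 7.68 in those labelled deleted. Most of its difference of 0.15 ± 0.08 (limma adjusted p = 0.977) came from clone 1, replicate 1, at 0.43, without which it was 0.05, and its other, dimmer probe set averaged 0.03.

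Phlda3, an inhibitor of the kinase AKT, averaged 0.16 ± 0.10, but its sets ran from -0.13 to 0.57. Plk2, a polo-like kinase of the stress response, averaged 0.08 ± 0.08, and Plk3, another polo-like kinase, -0.06 ± 0.08. Zmat3, an RNA-binding zinc finger protein gene, was at 0.09 ± 0.08, and Fbxw7, the substrate receptor of the ubiquitin ligase that degrades MYC and cyclin E, at 0.06 ± 0.08. Ptprv, a receptor-type tyrosine phosphatase gene, was at 0.04 ± 0.08.

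Of the 5 metabolic genes none passed, and 4 of the differences were above 0, with a median of 0.09. Slc19a2, a thiamine transporter, had the second smallest p of the 35 genes. It was at 8.29, 8.58, 8.76 and 8.65 in control arrays and at 8.59, 8.67, 9.08 and 8.79 in those labelled deleted. All 4 sets were above their control, by 0.30, 0.09, 0.32 and 0.14, and the mean of 0.21 ± 0.06 did not pass over all genes (limma adjusted p = 0.212). Its promoter window on the plus strand holds 1 RUNX core, 48 bases before the start, in capitals, and no p53 half-site.
Slc19a2, chr1:164248796-164249095: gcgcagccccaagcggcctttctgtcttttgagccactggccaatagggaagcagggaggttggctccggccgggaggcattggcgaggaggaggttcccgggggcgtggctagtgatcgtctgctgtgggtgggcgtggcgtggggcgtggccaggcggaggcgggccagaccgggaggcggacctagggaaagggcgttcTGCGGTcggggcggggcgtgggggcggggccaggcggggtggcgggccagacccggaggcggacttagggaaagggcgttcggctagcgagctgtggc
Dglucy, which encodes D-glutamate cyclase, was at 8.45, 8.37, 7.53 and 6.97 in control arrays and at 8.64, 8.41, 8.01 and 7.12 in those labelled deleted. Every set was above its control, with a mean difference of 0.21 ± 0.08 (limma adjusted p = 0.490), and it was 0.13 without clone 2, replicate 1, whose own difference was 0.48.

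Tigar, a bisphosphatase that slows glycolysis, was the one metabolic gene below 0. Its control arrays lay at 9.25, 9.25, 9.29 and 9.30 and those labelled deleted at 9.24, 9.20, 9.10 and 9.09. The groups did not overlap, as for 0.582 percent of all genes in that direction; none of the 35 did so in the higher direction, against 0.587 percent of all genes. For Tigar the difference was -0.12 ± 0.05 (SE, n = 4 sets; limma adjusted p = 0.789). The adenylate kinase gene Ak1 was at 0.09 ± 0.08 and the sugar reductase gene Dcxr at 0.07 ± 0.06. Across all classes, 7 of the 35 genes were higher in 4 of 4 sets, against 6.63 percent of all genes, and 3 were lower in 4 of 4, against 6.54 percent.

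The sets were next read one by one. Within clone 1, 27 of the 35 genes were above their control in replicate 1 (median 0.08) and 20 in replicate 2 (median 0.02). Within clone 2, 23 were above in replicate 1 (median 0.09) and 16 in replicate 2 (median -0.02). Over all genes the medians of these sets were 0.0032, 0.0093, -0.02 and 0.02. In the same order, 50.9, 53.9, 42.5 and 53.9 percent of all genes were above their control. Of the feedback genes, all 4 were above their control in clone 1, replicate 1, and none in clone 2, replicate 2.

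**Figure D4:**
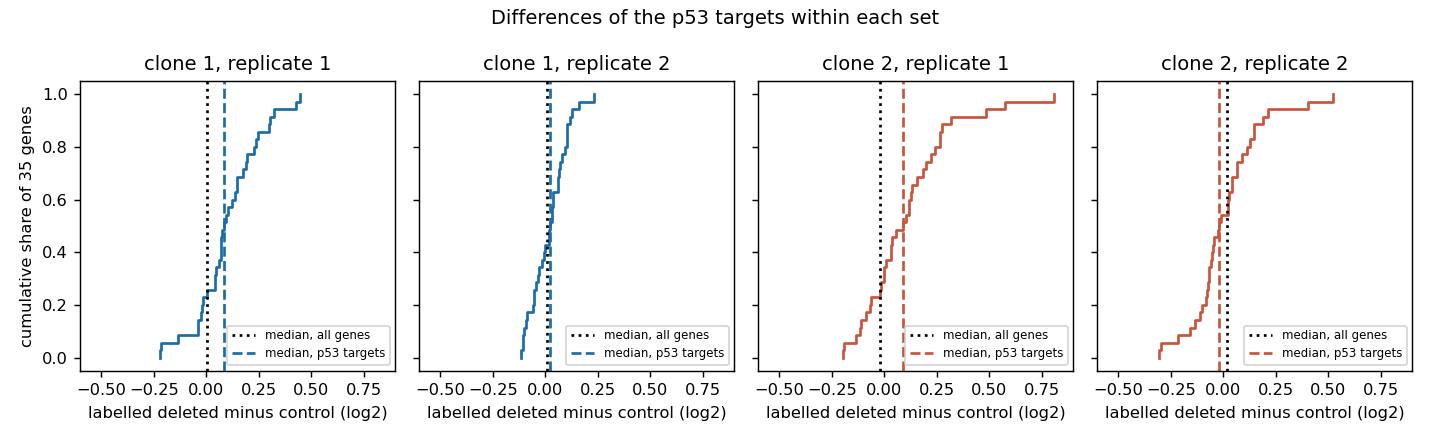
Cumulative share of the 35 genes against the log2 difference, labelled deleted minus control, in each set. Dashed lines mark the median of the p53 targets and dotted lines that of all genes; the targets' median lies to the right of the dotted line in both replicate 1 sets (0.08 and 0.09) and, more narrowly, in clone 1, replicate 2 (0.02), and to its left in clone 2, replicate 2 (-0.02).

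Fitted by replicate number, the median effect was 0.08 in the number 1 sets and -0.01 in the number 2 sets, against -0.01 and 0.01 over all genes. The difference between these effects was below 0 for 27 of the 35 genes, against 47.2 percent of all genes. None of the 35 passed in limma, and 5 of 35 had an unadjusted p under 0.05, against 18 percent of all genes. The smallest p was that of Eda2r, with effects of -0.21 and 0.17 (difference 0.38 ± 0.11, SE, limma adjusted p = 0.171). Pvt1 was next, with 0.31 and -0.02 (difference -0.33 ± 0.12, adjusted p = 0.213; -0.21 without clone 1, replicate 1). For Mdm2 the effects were 0.08 and -0.10, and for Trp53inp1 0.63 and 0.32; neither difference passed (adjusted p = 0.277 and 0.311). Taken alone, the effect of Trp53inp1 passed in the number 1 sets (limma adjusted p = 0.0154) and not in the number 2 sets (0.242). Over all genes, 192 passed in the number 1 sets and 165 in the number 2 sets. The design text names 2 independent experiments, and nothing ties a replicate number to one of them, so the part of the experiment in these values was not tested.

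The clones were then compared. Over all genes, 136 passed in clone 2 and 36 in clone 1. Trp53inp1 passed in clone 2, with an effect of 0.67 ± 0.12 (limma adjusted p = 0.0127), and not in clone 1, with 0.29 ± 0.12 (adjusted p = 1.00). The difference between the clones was 0.38 ± 0.17 and itself did not pass (limma adjusted p = 1.00, 95% interval 0.02 to 0.74). Phlda3 was the other gene with a clone difference among the smallest p, at -0.03 in clone 1 and 0.35 in clone 2 (adjusted p = 1.00). Without clone 2, replicate 1 these differences were 0.23 for Trp53inp1 and 0.16 for Phlda3; without clone 1, replicate 2 that of Trp53inp1 was 0.22, and without clone 2, replicate 2 that of Phlda3 was 0.60. No p53 target passed this test, with 1 of 35 at an unadjusted p under 0.05, against 0.01 percent of all genes past the threshold and 1.97 percent unadjusted.

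The control arrays were also compared between clones. In them, 1 of the 35 genes was lower in clone 2, none was higher and 34 did not pass, while 2.37 percent of all genes were lower and 1.6 percent higher. That gene was Dglucy, at 8.41 in clone 1 and 7.25 in clone 2, or 2.24-fold lower (log2 difference -1.16 ± 0.26, SE, limma adjusted p = 0.0323). The call ended without Control clone 1 replicate 1 (adjusted p = 0.212), without Control clone 1 replicate 2 (0.152) or without Control clone 2 replicate 2 (0.276), with a constant variance prior (0.0633) and with all probe sets tested (0.180). Tnfrsf10b (-0.74 ± 0.19, adjusted p = 0.0627), Trp53inp1 (-0.72 ± 0.27, 0.248), Zmat3 (-0.58 ± 0.18, 0.126) and Rrm2b (-0.50 ± 0.17, 0.189) were lower in clone 2 without passing, and were named after their values were seen. An unadjusted p under 0.05 was reached by 11 of the 35 genes, against 12.3 percent of all genes; 8 of them were lower in clone 2, against 6.74 percent. The other 3 were higher in clone 2, Xpc (0.29 ± 0.10, adjusted p = 0.184), Plk3 (0.28 ± 0.12, 0.331) and Pidd1 (0.26 ± 0.12, 0.401). Mdm2 differed by -0.06 ± 0.10 between the clones. With 2 control arrays per clone, these differences describe the 2 clones and their cultures. The fit took its spread from all 8 arrays without the set, although arrays of a set deviated together (r = 0.249 and 0.436 with clone means removed). The spread therefore rests on fewer independent values than the fit counts, and these p-values may be too small.

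**Figure D5:**
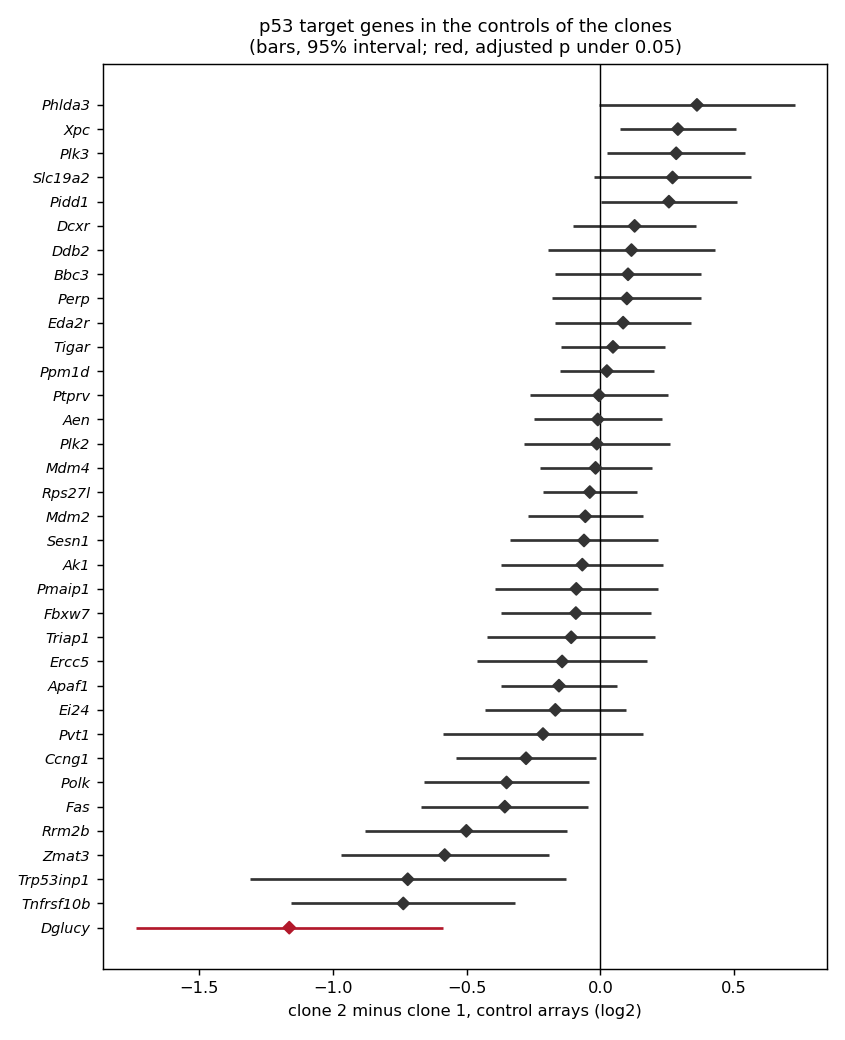
Difference in log2 level between the control arrays of clone 2 and clone 1 for each of the 35 genes, with its 95% interval. Dglucy, at -1.16, is the gene in red, and 23 of the 35 values are below 0, against 40.2 percent of all genes.

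Other genes of the pathway were examined in 2 further lists. Of 30 measured regulators of p53, such as the damage kinases Atm and Atr and the acetyltransferase gene Ep300, none passed in limma and none had an unadjusted p under 0.05. Their median log2 difference was -0.0084. Hipk2, a kinase that phosphorylates p53, had the smallest p (-0.10 ± 0.05, adjusted p = 0.809), followed by Rpl5, a ribosomal protein that binds MDM2 (0.05 ± 0.02, adjusted p = 0.836). Of 26 further p53 targets 1 rose and 0 fell, and 25 were short of the threshold, with a median of -0.0014. An unadjusted p under 0.05 was reached by 7 of the 26, against 6.47 percent of all genes, 3 of them higher and 4 lower. The gene that rose was Cd80, a costimulatory ligand for T cells, by 0.41 ± 0.07 (limma adjusted p = 0.0173), and it was placed in the list with that rise already known. Bid, a BH3-only protein gene that links death receptors to mitochondria, was at 0.17 ± 0.04 in 4 of 4 sets and did not pass (adjusted p = 0.0671). The others, named after their values were seen, were Tob1, an antiproliferative protein gene, at 0.31 ± 0.07 (adjusted p = 0.0762) and, on the lower side, Pml at -0.19 ± 0.05 (0.0997), Gadd45a at -0.27 ± 0.09 (0.367), Dram1 at -0.17 ± 0.07 (0.552) and Siva1 at -0.14 ± 0.06 (0.628).

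Some marker genes of blood lineages also changed. Of 12 myeloid progenitor markers 4 fell (Kit, Prtn3, Spi1 and Cebpa) and none rose, against 0.471 percent lower and 0.481 percent higher over all genes. The median log2 difference of this list was -0.02, with 4 above 0 and 8 below. Flt3 was higher in 4 of 4 sets without passing (0.29 ± 0.09, limma adjusted p = 0.248). Of 8 neutrophil markers 1 fell (Ngp) and none rose, with a median of -0.16, 2 differences above 0 and 6 below. The mean level of the neutrophil list ran from 7.58 to 8.95 in control arrays and from 7.33 to 8.99 in those labelled deleted. Of 6, 5, 8, 6, 7 and 8 measured erythroid, megakaryocyte, macrophage, B cell, T and NK cell and stromal markers, none passed. Among 7 mast cell and basophil genes 1 rose (Hdc) and 0 fell. In that list 3 differences were above 0 and 4 below, with a median of -0.03. Mcpt8 (-0.24 ± 0.07) and Gata2 (-0.09 ± 0.08) were lower in 4 of 4 sets without passing. In bulk cultures fewer cells of a type and less RNA per cell cannot be told apart, and the part of cell composition in the changes above was not tested.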

How the data were processed

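RNA from 8 cultures was measured on Affymetrix arrays with whole-transcript labelling, per the labels' protocols. The deposited values are probe-set levels on the log2 scale, made by the authors with RMA, per the submitters' processing notes; the RMA version and the genome build were not given in the sources used here. The range of the values, 2.60 to 13.77, is that of log2. The number of arrays limits precision. Names came from the platform annotation, checked against a RefSeq gene table (GRCm38.p6), which changed 0 symbols and left 91 identifiers unmatched. Of 35556 probe sets 21789 had 1 symbol and 1621 had several, and the brightest probe set per gene left 19938 genes.

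Fits used limma 3.58.1 in R 4.3.3 with a variance prior that follows mean level, two-sided, with the set as a block, as the series' design text compares sets. Within sets, arrays deviated together (r from 0.724 to 0.817; 0.249 and 0.436 with clone means removed). Effects by clone and by replicate number used the same block; control clones were compared in a fit of 4 cells without it. Scripts were tested on simulated data. The gene list, its classes, the other lists and the tests were chosen with earlier results of these data known. The naming rule gave array values for the genes past the threshold and those with the smallest p, 10 in all, and always for Mdm2, Ccng1, Bbc3, Bax and Trp53inp1; of other lists, the genes past the threshold and the 2 with the smallest p. Promoter sequences came from RefSeq. Alternatives covered pairing, variance model, weights, scaling, probe sets, filters and left-out sets.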

Additional observations from a re-analysis of the deposited data

Results flagged for a closer look

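In 1 of 61 groups of 4 values examined, a value stood apart from the other 3 by more than Dixon's critical value; chance flags about 1 in 20 such groups. It was the difference of Plk2 in the set of clone 2, replicate 1, at 0.22 against 0.02 to 0.04 in the other sets.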

How the results depend on the processing

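Among the p53 targets, the count higher past the threshold was 1 in the paired fit and 0 in each fit with no replicate block (group only, clone as covariate, clone and replicate number as covariates, set as a random block), with a constant variance prior and with all probe sets tested. Leaving out a set gave 0 to 2. The count lower stayed at 0 in all 16 alternatives, with 0 to 7 of the genes at an unadjusted p under 0.05. The number with a difference above 0 ran from 21 to 29 and the median from 0.02 to 0.06. Over all genes, 190 passed in the paired fit and 0 with group only (317 unadjusted), 23 with clone as covariate, 78 with clone and replicate number, 3 with a random block, 13 with a constant variance prior, 388 with array weights and 0 with all probe sets tested (1834 unadjusted); without a set it was 98 (clone 1, replicate 2) to 418 (clone 2, replicate 2).

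Mdm2 changed sign with array weights (0.0023) and without clone 2, replicate 2, leaving out a set giving -0.0447 to 0.0386, and Ccng1 with centred arrays (-0.0049), all short of the threshold; the cause was not tested. Among control clones, the count of 1 became 0 with a constant variance prior and with all probe sets tested, and 6 with array weights. Over all genes, 792 passed in the main fit, 696 with a constant variance prior and 1599 with array weights. With all probe sets tested it was 477. Without 1 control array the log2 difference of Dglucy ran from -1.44 to -0.885. For the differences between clones and between replicate numbers, 1.97 and 18 percent of all genes had an unadjusted p under 0.05 in the main limma fits. No p53 target passed for the difference between clones or replicate numbers in any of 12 alternatives each, with 0 to 3 and 3 to 12 of the genes at an unadjusted p under 0.05. Signal over background was not in the values used, so how it limits dim genes such as Eda2r was not tested.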
